A study of Mus musculus with 5 samples.

Results

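Cd274 and Pdcd1lg2 encode PD-L1 and PD-L2, the ligands of the inhibitory T cell receptor PD-1. These 2 genes were taken by name from the 27998 genes of a single-cell RNA table, and their raw UMIs (unique molecular identifiers, which count captured RNA molecules) were read by cell class and by sample. They accounted for 23114 and 3137 UMIs in the cells described here.

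The study sorted live CD45+ cells, CD45 being the surface marker of blood-derived cells, from the tumour, the tumour-draining lymph node and a non-draining lymph node of 3 mice. One mouse was given nivolumab_mIgG1_D265A, one nivolumab_mIgG1 and one the control antibody MOPC21. Nivolumab is an antibody that blocks human PD-1, and D265A is a change in the antibody's Fc part that weakens its binding to Fc receptors. The labels used here name no strain, age or tumour line. The cells of all 9 samples were marked with hashtag antibodies, pooled and run together as 4 gene expression libraries.

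Nothing in the labels ties a hashtag to a mouse or a site, so the cells of the 9 hashtags are called populations 1 to 9. None of them is assigned to an antibody or a site, and they are not replicates of one another. No p-value between them was computed, and intervals of their ratios cover counting error only. The table held 21624 barcodes, none of them shared between libraries, of which 21531 passed the stated filters and 21273 carried 1 clear hashtag. The populations held 2056 to 2581 cells with totals of 9202501 to 31330079 UMIs and medians of 3377 to 10660 UMIs per cell. Populations 1, 4 and 7 were the deepest.

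Cell classes were set by gates on UMIs of marker genes, which placed 18302 cells in a class and left 2971 in none. The gates used C1qb for macrophages, Ncr1 for natural killer (NK) cells and Fscn1 for migratory dendritic cells, so the levels of these genes in their own class, 7263, 466 and 3903 CPM (UMIs of the gene per 1000000 UMIs of the class), are set by the gate and are no check of the names. The fibroblast gene Col1a1 was at 0.116 CPM in macrophages and was not counted in B or NK cells. Populations 1, 4 and 7 held 2670 of the 2708 macrophages, and populations 2, 3, 5, 6, 8 and 9 held 6264 of the 6302 B cells. Activated CD8 T cells numbered 1387 and NK cells 523.

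PD-1 dampens signalling from the T cell receptor when either ligand binds it. PD-L1 is made by many haematopoietic and non-haematopoietic cells and is a classic target of interferon gamma, which acts through JAK kinases and IRF1, and of type I interferon. PD-L2 is known mainly from dendritic cells, macrophages and some B cells, where signals through STAT6 and NF-kB raise it, and it has a second partner, RGMb.

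Both genes lie on chromosome 19 of the mouse build GRCm38, on the plus strand. Cd274 (ENSMUSG00000016496) spans 29367455 to 29388095 and Pdcd1lg2 (ENSMUSG00000016498) spans 29410919 to 29471161 in the GENCODE annotation, with 22823 bases between them. The stretches before their annotated starts are shown because the co-expression results below concern interferon, STAT and NF-kB genes. They are RefSeq sequences on GRCm38.p6, plus strand, at chr19:29367309-29367437 for Cd274 and chr19:29410669-29410918 for Pdcd1lg2, with capitals marking motif matches.
Cd274: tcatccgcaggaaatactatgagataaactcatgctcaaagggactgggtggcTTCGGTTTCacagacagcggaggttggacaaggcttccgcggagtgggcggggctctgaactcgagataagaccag
Pdcd1lg2: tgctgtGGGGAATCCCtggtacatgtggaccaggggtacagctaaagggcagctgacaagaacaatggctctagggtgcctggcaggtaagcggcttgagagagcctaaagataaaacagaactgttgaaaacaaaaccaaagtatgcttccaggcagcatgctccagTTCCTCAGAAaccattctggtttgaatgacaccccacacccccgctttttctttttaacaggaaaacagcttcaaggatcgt

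The capitals before Cd274, TTCGGTTTC, match on the minus strand the interferon response element core GAAANNGAA, 76 to 68 bases before the RefSeq start at 29367438, which lies 17 bases before the GENCODE start. This core was found in 7.13% of the 32851 RefSeq mouse promoters searched over the same 250 bases and both strands, and not before Pdcd1lg2. The match also lies in an exon of a non-coding transcript of the oppositely directed gene Plgrkt, with 64 bases between the GENCODE starts of the genes. The first capitals before Pdcd1lg2, GGGGAATCCC, match on the minus strand the NF-kB-type letters GGGANNNNCC, found in 17.6% of promoters, 244 to 235 bases before the start, where both annotations have the same base. The second, TTCCTCAGAA, match the STAT6-type letters TTCNNNNGAA, found in 5.85% of promoters, 82 to 73 bases before the start. The gamma-activated site TTCNNNGAA was in neither window and in 7.02% of promoters. These matches are letters in a window, and the table holds no measurement of a factor's binding.

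Cd274 was highest in migratory dendritic cells and monocytes, followed by macrophages, among classes with at least 50 cells and a lineage name. Over all populations it stood at 563 CPM (95% Poisson interval 500 to 632, 74 cells) in migratory dendritic cells, the mature dendritic cells that carry antigen to lymph nodes. It stood at 402 CPM (382 to 422, 453 cells) in Ly6c2-expressing monocytes and at 276 CPM (271 to 281, 2708 cells) in macrophages. B cells followed at 133 CPM (128 to 138), activated CD4 T cells at 116 (93.3 to 142) and regulatory T cells (Treg) at 98.6. NK cells stood at 93.2, activated CD8 T cells at 85.0, naive CD8 T cells at 64.2 and naive CD4 T cells at 43.9. Germinal centre B cells were at 37.3 CPM. These are sums over populations, and the order can differ within one. Cd274 of activated CD8 T cells over naive CD8 T cells was below 1 in 4 of the 6 populations that held both (median 0.841), and no interval excluded 1. Without population 7 migratory dendritic cells stood at 458 CPM, below monocytes at 541. Intervals here and below cover counting error only, since no class has replicate samples of a known group.

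In macrophages Cd274 was 358 CPM in population 1, 385 in population 4 and 188 in population 7. Population 7 was thus low, with population 4 at 2.05 times its level (1.96 to 2.13), while populations 1 and 4 differed by a ratio of 0.931 (0.886 to 0.978). Monocytes stood at 429, 603 and 298 CPM in the same order of populations. They were above the macrophages of their own population in each of the 3, by 1.20 times (1.01 to 1.41), 1.57 times (1.45 to 1.69) and 1.58 times (1.46 to 1.72). A further 249 myeloid cells without the markers of either class held more Cd274, 568, 965 and 531 CPM, but they also held more of the nuclear RNA Malat1 (18569 CPM against 5740 in macrophages), and the part of RNA quality in that level was not tested.

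Migratory dendritic cells were few in each population, and their Cd274 level was uneven. It was 308 CPM in population 2, 214 in population 5, 914 in population 7 and 361 in population 8, each from 10 to 14 cells. The highest values came from fewer cells, 1275 CPM (977 to 1634) from 6 cells of population 1 and 1929 CPM (1311 to 2738) from 3 cells of population 4, which gave 62 and 31 of the 291 UMIs. Populations 3, 6 and 9 stood at 461, 91.8 and 143 CPM. In population 7 the level was 4.86 times that of macrophages and 3.06 times that of monocytes. Those 11 cells also held the macrophage genes C1qa, C1qb and C1qc at 5199 CPM, 29.9% of the macrophage level, a share at which macrophage RNA would bring 82.4 CPM of Cd274. Malat1 was 8846 CPM in them and 19686 CPM over the class. The part of either in the level was not tested.

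Among rarer classes, the 13 gated type 1 dendritic cells, which cross-present antigen, stood at 232 CPM. Of their 52 UMIs 29 came from 1 cell of population 4, and the level was 109 CPM without that population and 356 CPM without population 7. The 16 neutrophils stood at 980 CPM (758 to 1247), and at 1526 CPM without population 1. They also held C1qb at 1857 CPM, against 7263 in macrophages, and Ly6c2 at 1188 CPM. The part of other myeloid RNA in their level was not tested. The 24 plasmacytoid dendritic cells, which are producers of type I interferon, gave 0 Cd274 UMIs, which allows a level of up to 16.1 CPM. They gave no Pdcd1lg2 UMI either, with the same limit.

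Cd274 in B cells was even across 6 populations, at 130, 136, 136, 124, 143 and 122 CPM in populations 2, 3, 5, 6, 8 and 9. The 6 values lie close together. They are above naive CD4 T cells of the same population by 2.40 to 3.84 times, with every interval above 1. The 20 and 11 B cells of populations 4 and 7 stood higher, at 198 CPM (102 to 346) and 258 CPM (112 to 509), with wide intervals. Germinal centre B cells, which mutate and select their antigen receptors, were lower than the other B cells. They stood at 36.4, 42.4 and 23.8 CPM in populations 2, 5 and 8, which is 0.280, 0.313 and 0.166 times the B cell level, and each interval was below 1. These cells held less Malat1 (2316 against 8606 CPM) and more UMIs (a median of 9257 against 3021 per cell), and the part of either was not tested. Antibody-producing plasma cells stood at 21.1 CPM, with 15 of 19 UMIs from population 5, at 7.54 CPM without population 5 and at 31.8 CPM without population 8.

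In T cells the spread between populations followed the class. Treg cells, which restrain immune responses, held 256 CPM of Cd274 in population 4 and 231 CPM in population 7. They held 118 CPM in population 1 and 52.7 to 92.8 CPM in the other six. Activated CD8 T cells held 97.6, 89.3 and 68.3 CPM in populations 1, 4 and 7 and 45.6 to 70.8 CPM elsewhere, so the groups of populations overlapped. Naive CD4 T cells ranged from 31.9 to 51.6 CPM.

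In sums over all populations, Pdcd1lg2 had another order of classes. NK cells, activated and regulatory T cells and B cells stood above macrophages and monocytes, and naive T cells below them. Pdcd1lg2 stood at 118 CPM (90.3 to 152) in migratory dendritic cells and 83.8 CPM (74.2 to 94.3) in NK cells. It was 77.7 CPM (59.4 to 99.8) in activated CD4 T cells and 57.2 CPM in activated CD8 T cells. Treg cells stood at 47.5 CPM and B cells at 39.0 CPM. Monocytes were at 16.4 CPM, macrophages at 12.4, naive CD4 T cells at 6.65 and naive CD8 T cells at 4.50 CPM. The first place rests on few cells of populations 1, 4 and 7, whose 6, 3 and 11 migratory dendritic cells gave 21, 7 and 29 of the 61 UMIs, at 432, 436 and 243 CPM. The same class held 19.2, 30.6 and 9.50 CPM in populations 2, 5 and 8 and no UMI in populations 3, 6 and 9. Without population 1 it stood at 85.4 CPM, beside 85.6 in NK cells, and without population 7 at 80.5 CPM, below 89.2 in NK cells. The macrophage level was 6.99 CPM without population 4 and 19.9 without population 7, below monocytes (16.3 and 20.7) in both cases. Most macrophages and naive T cells came from different populations, and single values overlapped. Macrophages of population 7 held 5.92 CPM, below naive CD4 T cells of populations 5 and 8 at 11.8 and 10.5. In population 1 monocytes, at 39.5 CPM, were above activated CD4 T cells at 36.0.

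**Figure D1:**
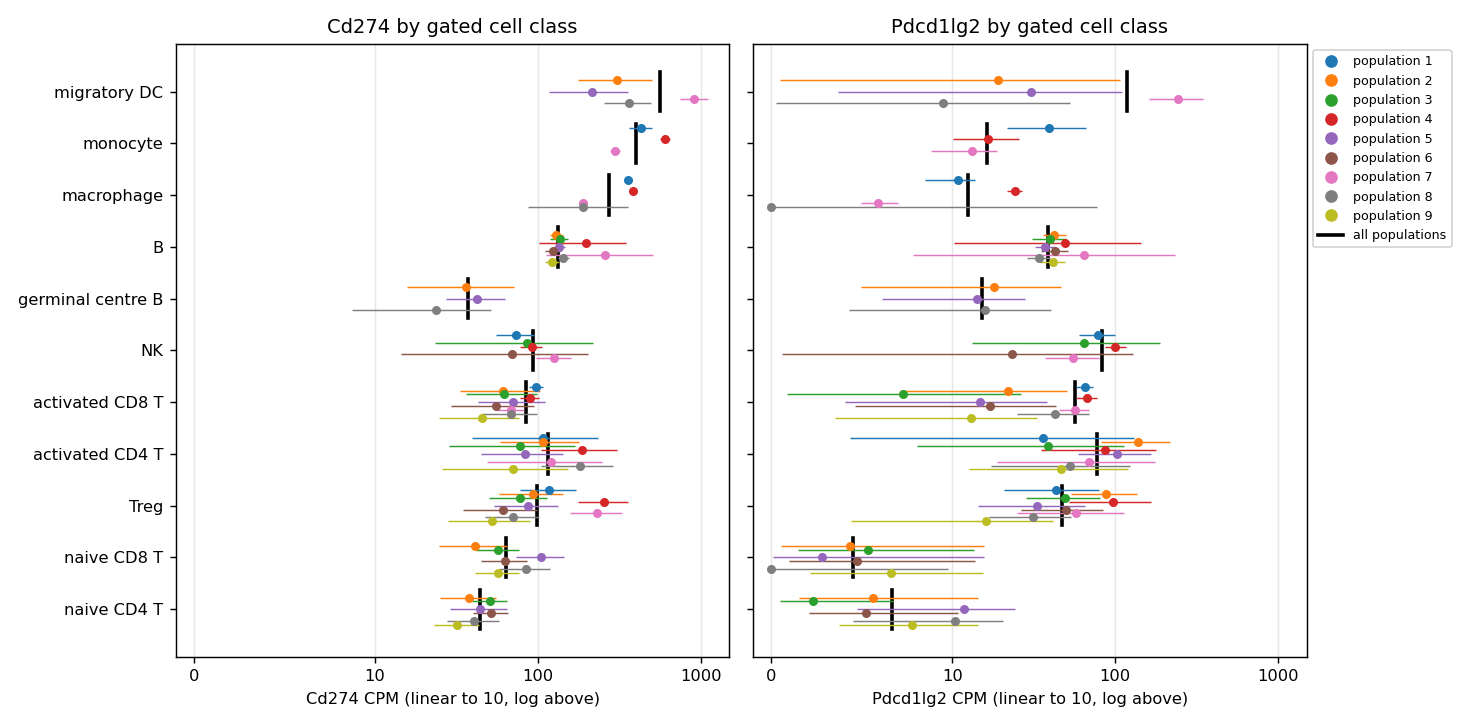
Level of Cd274 (left) and Pdcd1lg2 (right) in CPM, on an axis that is linear to 10 and logarithmic above, by gated cell class. Points are populations with at least 10 cells of the class, lines their 95% Poisson intervals and black bars the level over all populations. Cd274 is highest in migratory dendritic cells and monocytes, and Pdcd1lg2 is higher in NK cells (83.8) than in macrophages (12.4).

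NK cells, innate lymphocytes that kill stressed cells, held 78.2 CPM of Pdcd1lg2 in population 1, 101 in population 4 and 55.4 in population 7. The macrophages of those populations held 10.9, 24.2 and 5.92 CPM, so the classes did not overlap. The NK level was 7.18 times (5.01 to 10.3), 4.16 times (3.44 to 5.00) and 9.35 times (6.04 to 14.0) the macrophage level. For Cd274 the same comparison gave 0.204, 0.238 and 0.670 times, the opposite direction in each population.

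Against activated CD8 T cells the NK level of Pdcd1lg2 was 1.20, 1.5 and 0.981 times in populations 1, 4 and 7, of which the interval of population 4 alone excluded 1. Activated CD8 T cells held 65.2, 67.3 and 56.5 CPM in populations 1, 4 and 7. They held 21.9, 7.29, 14.9, 17.0, 43.1 and 13 CPM in populations 2, 3, 5, 6, 8 and 9, all lower, with 31 to 43 cells in each. The gap between populations 1 and 3 was 8.94 times (2.45 to 74.2), and that between populations 1 and 8 had an interval that included 1. What distinguishes the populations cannot be read from the labels.

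Among CD4 T cells, Pdcd1lg2 was low in naive cells, at 2.31 to 11.8 CPM in 6 populations. Activated CD4 T cells were 5.08 to 24.6 times above them in 5 of 5 populations with enough cells, each with an interval above 1. The highest values were 138 CPM in population 2 and 103 CPM in population 5. Treg cells were above naive CD4 T cells in 6 of 6 populations, by 2.08 to 21.4 times, with the interval above 1 in 4. For Cd274 the intervals were above 1 in 2 of 5 populations for activated CD4 T cells and 3 of 6 for Treg cells.

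B cells held 42.4, 39.6, 37.3, 42.7, 33.9 and 41.7 CPM of Pdcd1lg2 in populations 2, 3, 5, 6, 8 and 9, again an even level. It was 3.15 to 17.2 times that of naive CD4 T cells. In populations 4 and 7, 20 and 11 B cells gave 3 and 2 UMIs, at 49.5 CPM (10.2 to 145) and 64.6 CPM (7.82 to 233). Germinal centre B cells were at 18.2, 14.1 and 15.8 CPM, and the interval of their ratio to B cells was below 1 in 1 of 3 populations.

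Monocytes were above macrophages in Pdcd1lg2 in populations 1 and 7, by 3.63 and 2.22 times, but not in population 4, at 0.687 times (0.414 to 1.08). Macrophages of population 4 held 4.09 times (3.34 to 5.03) the Pdcd1lg2 of population 7 and 2.22 times (1.71 to 2.93) that of population 1.

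Ordering the classes inside each population left most neighbours not told apart at these counts. For Cd274, monocytes came first and macrophages next in populations 1 and 4, each step with an interval that excluded 1. In population 7 migratory dendritic cells came first and were told apart from monocytes. B cells came first or next to first in populations 2, 3, 5, 6 and 9. For Pdcd1lg2, NK cells came first in populations 1, 3 and 4 and activated CD4 T cells in populations 2, 5, 8 and 9, and of these 7 first places the one in population 5 was told apart from the next class.

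Because deep cells show more UMIs, shares of cells with a UMI were compared after thinning each cell to 2000 UMIs. With Cd274 these were 46.5% of migratory dendritic cells, 42.1% of monocytes, 36.5% of macrophages (78.5% before thinning), 22.3% of B cells and 8.17% of naive CD4 T cells. With Pdcd1lg2 they were 16.9% of migratory dendritic cells, 13.7% of NK cells, 10.0% of activated CD8 T cells, 7.28% of B cells, 2.47% of macrophages and 1.19% of naive CD4 T cells. Median depths were 15735 UMIs per macrophage, 4999 per NK cell and 3021 per B cell.

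Free RNA in droplets carries transcripts into other cells, and with 1 pool it would reach all populations. The macrophage genes C1qa, C1qb and C1qc trace only the part that comes from macrophages. At their share, macrophage RNA would bring 3.29 CPM of Cd274 into B cells, against 133 measured. For Pdcd1lg2 it would bring 0.148 CPM into B cells, against 39.0 measured. Free RNA from other classes was not measured, and the part of free RNA in the levels was not tested.

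The balance of the ligands differed most between NK cells and myeloid cells. Over all populations, Pdcd1lg2 gave 47.3% of the UMIs of both ligands in NK cells (95% exact binomial interval 43.2 to 51.5), 40.2% in activated CD8 T cells, 40.1% in activated CD4 T cells and 32.5% in Treg cells. It gave 22.6% (21.3 to 24.1) in B cells, 17.3% in migratory dendritic cells and 13.2% in naive CD4 T cells. In macrophages it gave 4.32%, and in monocytes 3.92%. By population the share in NK cells was 51.7%, 52.4% and 30.5% in populations 1, 4 and 7, and in macrophages 2.95%, 5.92% and 3.05%. The values of these classes did not overlap. Other classes did: the share ran from 10.5% to 45.3% in activated CD8 T cells, with 40.1%, 43.0% and 45.3% in populations 1, 4 and 7, from 20% to 48.8% in Treg cells and from 4.35% to 21.2% in naive CD4 T cells. In B cells of 6 populations it ranged from 19.2% to 25.6%. The share compares classes for 1 pair of genes. It does not say which RNA was more abundant, since transcript length and capture differ between genes.

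**Figure D2:**
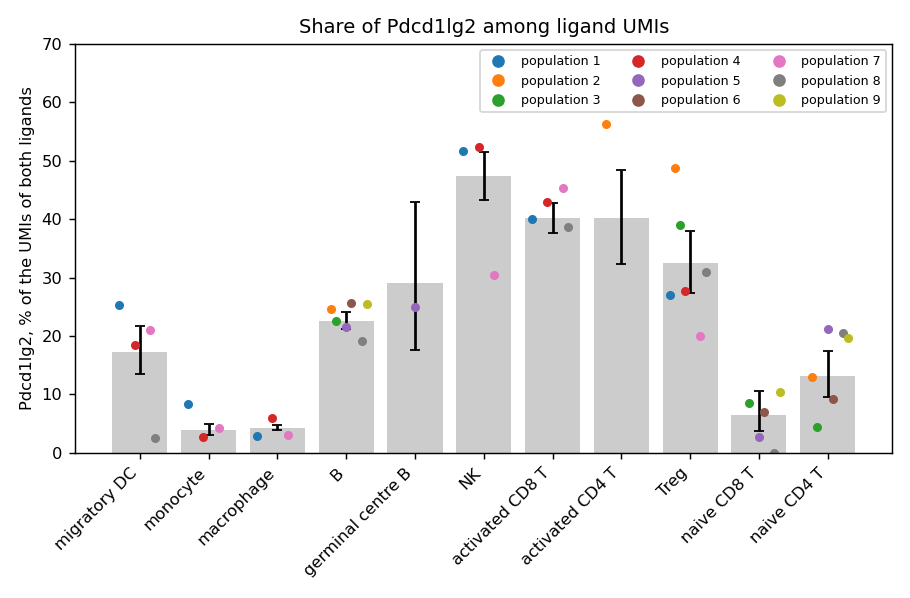
Percent of both ligands' UMIs that belong to Pdcd1lg2, by gated cell class. Grey bars are all populations with 95% exact binomial intervals, and points are populations with at least 30 ligand UMIs. Macrophages (4.32%) and monocytes (3.92%) lie at the bottom and NK cells (47.3%) at the top.

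Genes that varied with each ligand from cell to cell were sought within macrophages, B cells, NK cells and all T cells, the last of which mix naive, regulatory and activated cells. For each gene detected in at least 5% of the class, Pearson's r with the ligand was computed on depth-adjusted residuals in each population and averaged. A gene was called where the mean r was at least 0.1 from 0 with the same sign in every population used. Points of such a correlation are cells of 1 library pool, so r is given as a description.

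In macrophages, cells with more Cd274 also had more RNA of interferon-induced genes. In populations 1, 4 and 7 the called genes numbered 529 higher (5.49% of 9631) and 384 lower (3.99%). The highest mean r was that of Gbp4, an interferon-induced GTPase, at 0.306, with 0.334, 0.266 and 0.317 in the 3 populations. Gm4951 and Iigp1, further interferon-induced GTPases, followed at 0.296 and 0.282. Irg1, which makes the metabolite itaconate, was at 0.294, and Nampt, an enzyme of NAD synthesis, at 0.291. Slamf7, Gbp5, Arid5b, Parp14 and Gbp8 completed the 10 highest, down to 0.235. Among the lowest values were those of Gpx1, a peroxide-reducing enzyme, at -0.216, and the ribosomal protein gene Rps27a at -0.213.

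By list, 20 of the 24 genes of interferon gamma and JAK-STAT signalling were called higher in macrophages, with a median r of 0.137 against 0.000165 over all genes tested. They included the transcription factor Irf1 (0.229), the kinase Jak2 (0.149), the chemokine Cxcl10 (0.165) and the feedback inhibitor Socs1 (0.195). The receptor chains Ifngr1 and Ifngr2 were not among them, both at -0.060. Of 14 type I interferon genes 9 were called (median 0.111), such as Rsad2 (0.201) and Ifit2 (0.187), both antiviral. Of 11 NF-kB genes 5 were called (median 0.0917), among them the inhibitor Tnfaip3 (0.172), the adhesion molecule Icam1 (0.177) and the subunit Nfkb1 (0.150). In the list of the B7 family and partners (median 0.00439) the costimulatory ligand Cd86 was the 1 of 10 called, at 0.205, while its relative Cd80 was at 0.014. Of 5 genes of IL-4 and STAT6 signalling 2 were called (median 0.0854), the receptor chain Il4ra (0.140) and Arg1 (0.129). Of 5 genes of PD-L1 protein turnover, 1 was called, Spop (0.149), a ubiquitin ligase adaptor. The median of that list was -0.0396, below that of all genes. Of all genes tested 5.49% were called higher.

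Malat1 also ran with Cd274 in macrophages (r 0.224), and ribosomal protein genes ran against it. With the shares of Malat1 and of ribosomal protein RNA regressed out, a step added after the data were seen, 161 genes were called higher in place of 529. Gbp4 then stood at 0.295, Iigp1 at 0.273, Gbp5 at 0.256 and Irg1 at 0.277, while Arid5b stood at 0.139. Of the 24 interferon gamma and JAK-STAT genes, 16 were still called.

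Pdcd1lg2 in macrophages ran with fewer genes, 32 higher (0.332% of 9631) and 0 lower. The count was 20 on log1p values, 59 without population 4 and 49 without population 7. Pdcd1lg2 was sparser there, with 536 UMIs against 11870 of Cd274, and the part of that in the count was not tested. The highest were Tarm1, an activating receptor of myeloid cells, at 0.174 and Sdc4, a heparan sulphate proteoglycan, at 0.172. Tnfaip2 (0.161) and Hif1a (0.145), the hypoxia-inducible factor, were called too. Amica1, at 0.168 on average, was -0.006 in population 4 and not called. Of the interferon gamma and JAK-STAT list 2 of 24 were called, Gbp5 (0.136) and Gbp4 (0.115). None of the 14 type I interferon, 11 NF-kB or 5 IL-4 and STAT6 genes was, with Il4ra at 0.069 and Arg1 at 0.061. With 0.332% of all genes called, a count of 0 in lists this short says little. The medians of these 3 lists were 0.0153, 0.0155 and 0.0387, and that of interferon gamma and JAK-STAT was 0.0199. All lay above the median of -0.00534 over all genes.

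Monocytes of populations 4 and 7, 397 cells, gave 618 genes higher with Cd274 (7.59% of 8141) and 712 lower (8.75%), and for Pdcd1lg2 372 (4.57%) and 156 (1.92%). With Cd274, 17 of 24 interferon gamma and JAK-STAT genes (median 0.163), 10 of 14 type I interferon genes and 8 of 11 NF-kB genes (median 0.125) were called higher. With Pdcd1lg2 these counts were 1, 0 and 1, near the share of all genes. The medians of -0.00883, -0.0134 and -0.0276 lay beside one of -0.00989 over all genes. Pdcd1lg2 was sparse in these cells, with 20 and 29 UMIs in populations 4 and 7 against 725 and 658 of Cd274. The part of that in the difference between the ligands was not tested.

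Macrophages thinned to 5000 UMIs were also split by their own Cd274 count, in 112, 255 and 164 cells with at least 3 UMIs and 130, 233 and 673 with 0 in populations 1, 4 and 7. Nos2, the inducible nitric oxide synthase, was 157 against 24.6 CPM in population 1, 136 against 31.8 in population 4 and 58.5 against 17.2 in population 7. The ratios were 6.38 (3.72 to 11.7), 4.27 (2.98 to 6.27) and 3.40 (2.27 to 5.07). Gbp5 gave 3.33, 2.24 and 2.89 times and Cd86 1.52, 1.58 and 1.82 times. Arg1, an arginine-consuming enzyme, gave 1.5, 2.98 and 1.60 times, so Nos2 and Arg1 were both higher in the cells with more Cd274. Mrc1, the mannose receptor, was lower in populations 4 and 7, at 0.408 and 0.504 times, but not in population 1, at 1.45 times (0.714 to 2.99). The complement gene C1qb was at 0.793, 0.880 and 0.832 times, and Malat1 at 1.45, 1.48 and 1.20 times.

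**Figure D3:**
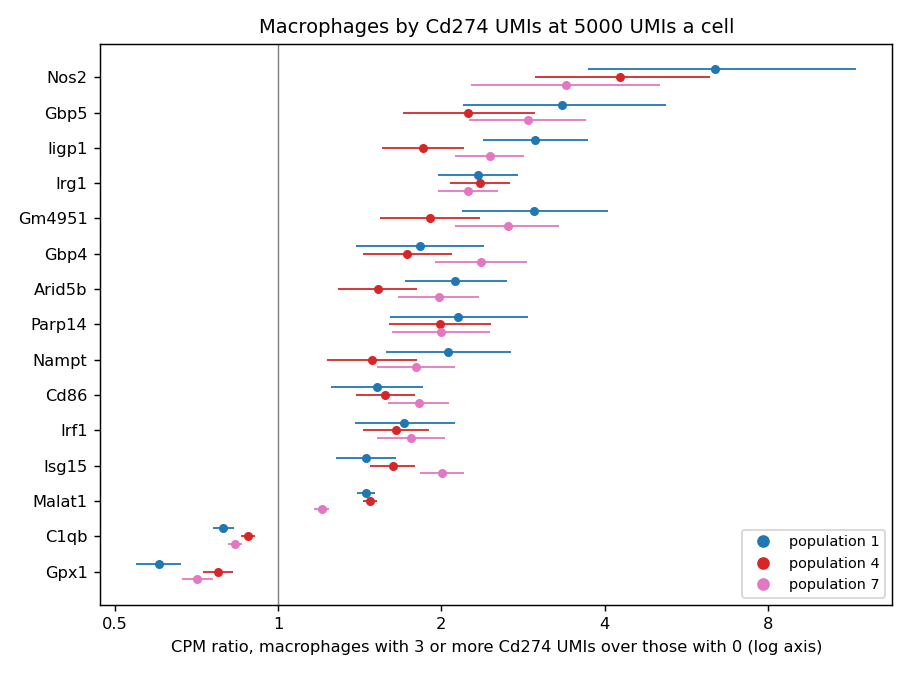
Ratio of CPM in macrophages with 3 or more Cd274 UMIs to CPM in those with 0, on a log axis, after thinning to 5000 UMIs per cell. Points are populations 1, 4 and 7 with 95% exact intervals of the ratio. Nos2 has the highest ratios (6.38, 4.27 and 3.40), and Gpx1 and C1qb lie below 1.

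Pdcd1lg2 itself was 21.4 against 4.62 CPM in those groups of population 1 (4.64 times, 1.25 to 25.6), 29.8 against 18.9 in population 4 (1.58 times, 0.910 to 2.80) and 14.6 against 4.75 in population 7 (3.08 times, 1.33 to 6.93). The interval of population 4 included 1. Across all macrophages the 2 ligands had an r of 0.0965, and in B, T and NK cells 0.0160, 0.0340 and 0.0768.

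Cells with a UMI of both ligands were set beside the number expected if the ligands fell independently within each population. After thinning to 2000 UMIs there were 32 such macrophages against 27.6 expected (1.16 times, 0.794 to 1.64), 107 B cells against 87.6 (1.22 times, 1.00 to 1.48), 42 T cells against 39.6 and 10 NK cells against 10.1. Thinned to 1000 UMIs the B cell ratio was 0.981 (0.652 to 1.42), below 1.

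In T cells of all 9 populations, 39 genes ran with Cd274 (0.504% of 7735) and 7 against it (0.0905%). The count was 10 on log1p values and 24 with the shares of Malat1 and ribosomal protein RNA regressed out. Igtp (0.160), Gbp4 (0.153), Ifi47 (0.151), Irgm2 (0.138) and Irgm1 (0.133), interferon-induced GTPases, were among the 10 highest with the antiviral genes Samhd1 (0.153) and Ifit1 (0.149), the factor Irf1 (0.132) and Parp9 (0.128). Each of these was above 0 in every population. Of the interferon gamma and JAK-STAT list 10 of 23 were called (median 0.0978 against 0.00527 for all genes), and of the type I interferon list 4 of 13. None of 11 NF-kB genes was.

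Within activated CD8 T cells of populations 1, 4 and 7 alone, where naive cells are left out, 283 genes ran with Cd274 (3.37% of 8387) and 124 against it (1.48%). Ifit1 (0.287) and Slfn8 (0.272), both interferon-induced, were among the highest, and 9 of 13 type I interferon genes (median 0.211) and 12 of 22 interferon gamma and JAK-STAT genes were called. With Pdcd1lg2, 38 genes were called higher (0.453%) and 26 lower (0.31%), and no type I interferon gene was. Within naive T cells 10 genes ran with Cd274 (0.142% of 7048), and 56 with Pdcd1lg2 (0.794% of 7049) in the 2 populations with enough of its UMIs.

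Pdcd1lg2 in T cells ran with other genes, 13 higher (0.168% of 7735) and 0 lower. The count was 5 with the shares of Malat1 and ribosomal protein RNA regressed out, 30 without population 1 and 28 without population 7. Bhlhe40, a transcription factor of activated T cells, was first at 0.224. It was 0.057, 0.10 and 0.112 in populations 1, 4 and 7, and 0.183 to 0.345 in the other six. Pdcd1, the gene of the receptor PD-1, was next at 0.167, from -0.009 in population 9 to 0.408 in population 5, and was not called for that sign. Dusp4, a phosphatase acting on MAP kinases, and Cd82, a tetraspanin, both at 0.153, and Bcl2a1b, an apoptosis inhibitor, at 0.135, were called. Tnfrsf4, the receptor OX40, was at 0.134 and below 0 in populations 1 and 7. Socs1 was the 1 of 23 interferon gamma and JAK-STAT genes called (0.102).

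The T cells of a population mix naive and activated cells, and Bhlhe40 differs between them, at 722 CPM in activated CD8 T cells and 19 CPM in naive CD4 T cells. Within activated CD8 T cells its r with Pdcd1lg2 was 0.0934, within naive T cells 0.0611 and within Treg cells 0.338. That of Pdcd1 was 0.0966 within activated CD8 T cells, whose gate used Pdcd1, and 0.265 within Treg cells. The activated CD8 T values rest on 1166 cells and the naive T value on 926. The Treg values are means over populations of only 27 to 43 Treg cells, with 10 to 20 Pdcd1lg2 UMIs each.

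**Figure D4:**
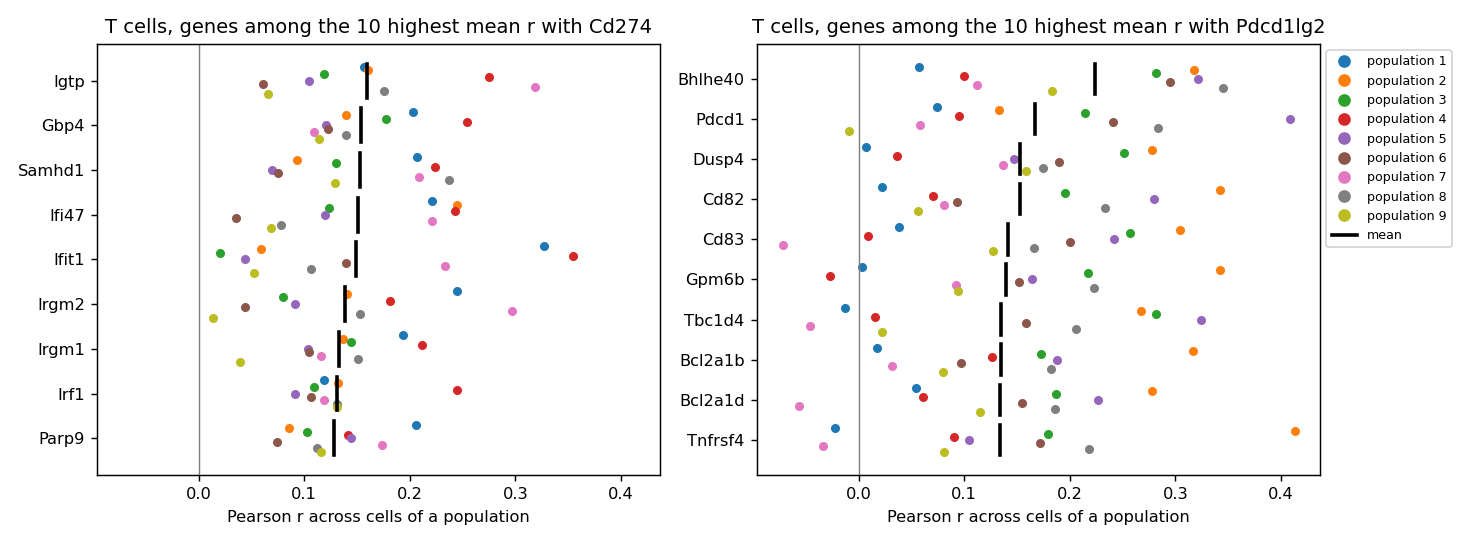
Pearson's r across T cells with Cd274 (left) and Pdcd1lg2 (right) for genes among the 10 with the highest mean r, by population, with black bars at the mean. All values plotted with Cd274 are above 0, while several genes with Pdcd1lg2, such as Tnfrsf4, are near or below 0 in populations 1 and 7.

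In NK cells 2 populations, 1 and 4, had enough cells, 388 in all. Cd274 had 595 genes called higher (7.3% of 8156) and 296 lower (3.63%), and Pdcd1lg2 419 (5.14%) and 186 (2.28%). In 1 population alone, where the condition of equal sign falls away, the higher calls were 645 and 1558 for Cd274 and 893 and 996 for Pdcd1lg2, without populations 1 and 4 respectively. The spread of r over all genes was wide in these few cells, from -0.214 to 0.276 for Cd274, against -0.106 to 0.0891 in B cells. The highest for Cd274 were Rsad2 (0.276), Vps13a (0.271), Cxcl10 (0.265) and Ifit2 (0.261), 3 of which are interferon-induced. Of the type I interferon list 11 of 14 were called (median 0.142 against 0.00394) and of interferon gamma and JAK-STAT 13 of 21. None of 11 NF-kB genes was.

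For Pdcd1lg2 in NK cells the interferon lists lay near all genes, whose median was -0.00383. None of 14 type I interferon genes was called (median -0.0183) and 1 of 21 interferon gamma and JAK-STAT genes was, Stat3 (0.126). Of 11 NF-kB genes 4 were called (median 0.110). These were the signalling adaptor Traf1 (0.240), Bcl3 (0.149), Icam1 (0.139) and Relb (0.110). Dkkl1 (0.288), Ccdc184 (0.284) and Mrps6 (0.270), a mitochondrial ribosomal protein, had the highest r. Of 6 genes of the B7 family and partners 2 were called (median 0.0251), Icosl (0.136) and Ctla4 (0.113), beside 5.14% of all genes.

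**Figure D5:**
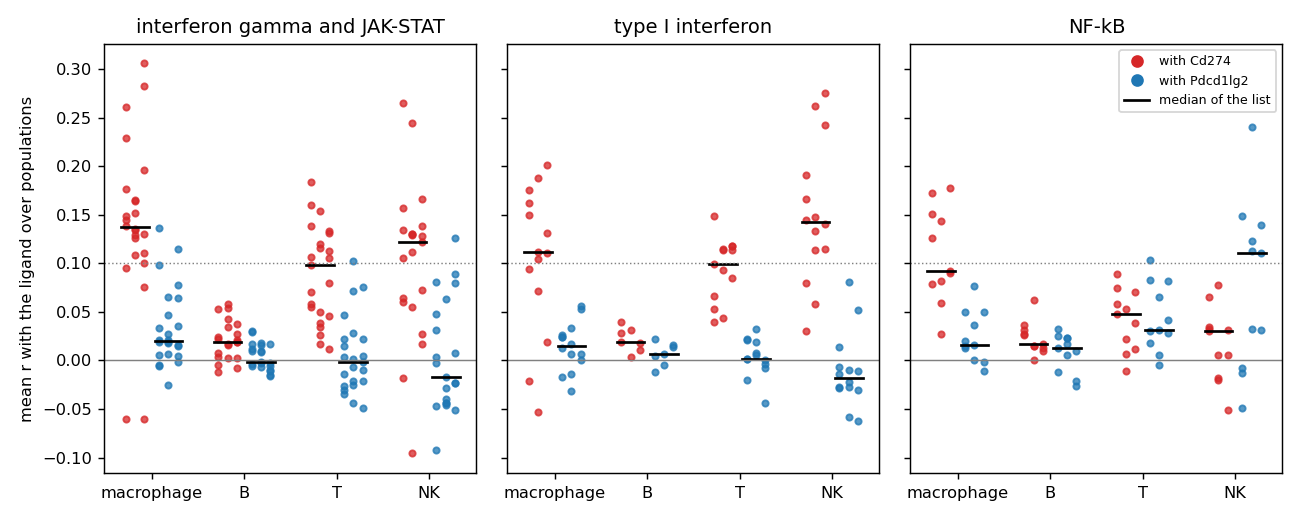
Mean r over populations of each list gene with Cd274 (red) and Pdcd1lg2 (blue) in macrophages, B, T and NK cells, for 3 gene lists. Black bars are list medians and the dotted line is the limit of 0.1. In macrophages the interferon gamma and JAK-STAT list has a median of 0.137 with Cd274 and 0.0199 with Pdcd1lg2, and the NF-kB list is higher with Pdcd1lg2 (0.110) than with Cd274 (0.0299) in NK cells.

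In B cells, the most numerous class, no gene was called higher with either ligand (0% of 6540), and 2 were called lower with Cd274 (0.0306%), Rps12 at -0.106 and Rps26 at -0.100. The highest r with Cd274 was that of Bank1, an adaptor of B cell receptor signalling, at 0.0891, and with Pdcd1lg2 that of Plaur, the urokinase receptor, at 0.0652. No gene of the 6 lists was called. Irf1 stood at 0.054 with Cd274. With a median of 3021 UMIs per cell, B cells were also the shallowest of the 4 classes, and the part of depth in the count was not tested.

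Over 43 sums of a class in a population with at least 30 cells, on the log2(CPM + 5) scale, the levels of the 2 ligands had an r of 0.247. These sums share libraries and depth, and r describes likeness only. The genes most like Cd274 were Cyba (0.910), a subunit of the phagocyte oxidase, Cst3 (0.902), a cysteine protease inhibitor, Tns3, Gm5431, Lpcat2, Eps8, Rassf4 and Snap23, down to 0.884. Those most like Pdcd1lg2 were Bhlhe40 (0.864), Unc119 (0.816), Ier5l, Samsn1, Coro2a, Serpina3g, Lrp10 and Prr13, down to 0.771. Membership of these lists depended on the setting. With log2(CPM + 20), 5 of the 8 genes stayed among the 8 highest for Cd274 and 6 for Pdcd1lg2. In the 26 sums with at least 100 cells, 1 of the 8 stayed for each ligand, though Cyba was at 0.955 and Bhlhe40 at 0.911. Bhlhe40 was at 821 CPM in NK cells, 787 in activated CD4 T cells, 563 in migratory dendritic cells, 136 in B cells and 33.7 in macrophages. It headed both the list across classes and the list within T cells. The sums hold many of the same T cells, which mix naive and activated cells, so the lists are not independent.

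The partners of the ligands had their own distribution. Pdcd1 was at 428 CPM in activated CD8 T cells, 162 in activated CD4 T cells and 72.3 in Treg cells, of which the first pair was gated with it, and at 24.7 CPM in NK cells and 0.836 in macrophages. Rgmb, the other partner of PD-L2, was at 26.6 CPM in macrophages and 27.1 in migratory dendritic cells.

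Of the 27 annotated genes within 500 kb, 18 were in the table. Jak2, which ends before Cd274 at 29313080, had an r with Cd274 of 0.149 in macrophages, 0.113 in T cells and 0.157 in NK cells. Ric1, beyond Pdcd1lg2, was at 0.166 with Cd274 and 0.102 with Pdcd1lg2 in macrophages. Plgrkt, whose start adjoins that of Cd274, was at 0.0445 in macrophages. A930007I19Rik lies on the minus strand and overlaps the far end of Pdcd1lg2, from 29464750, on the annotation. It ran with Pdcd1lg2 at 0.106 in macrophages, and the part of overlapping reads in that value was not tested.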

How the data were processed

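The authors' deposited table holds raw UMI counts per gene and cell barcode, with hashtag counts in the same table. Per the submitters' processing notes it was made with Cell Ranger 8.0.1 on the mm10 build, with the treatment of intronic reads not stated there. The libraries used 5' gene expression chemistry, per the labels' protocols.

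Cells with under 500 UMIs, under 200 genes or over 20% mitochondrial UMIs were left out, as the design states (93 barcodes). A cell took the hashtag whose count was at least 3 times the next, and 258 cells had none. Gates summed UMIs of marker genes (at least 4 for T and B cells, 2 for NK cells, 5 for myeloid genes and 10 for C1q genes in macrophages) with limits on other lineages. Gate minimums were set after the data were seen, and cells with markers of 2 lineages were in no class. Scrublet (scanpy 1.11.5) was run only as an alternative.

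Levels are CPM, the UMIs of a gene per 1000000 UMIs of the class, with exact 95% Poisson intervals. Ratios have exact conditional binomial intervals, and a count of 0 allows 3 counts. Intervals cover counting error only, and cells are not replicates, so no p-value was computed. Correlations used Pearson residuals (theta 100, clipped) in populations with at least 100 cells of the class (20 for Treg cells) and 10 ligand UMIs. Tested on simulated counts for Cd274 in macrophages, the step called 88% of 100 genes with an effect of 0.3 per SD, 100% of 100 with 0.6, and 0 of 9446 others. Those others were simulated independently, without shared variation such as that of Malat1, so the 0 gives no rate of false calls in these data. Named genes were the 10 highest and 3 lowest r per ligand and class, the 8 most alike across sums, list examples and genes within 500 kb, of which a few are not reported here. Nos2 and the other genes of the split by Cd274 count were chosen after values were seen. The members, lists and gates were chosen with earlier results of these data known. Alternatives changed the gates, hashtag ratio, filters, doublets, residuals, detection limit, thinning and populations used. Software was Python 3.11.15, numpy 2.4.6, scipy 1.17.1 and pandas 2.3.3.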

Additional observations from a re-analysis of the deposited data

Results flagged for a closer look

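Ligand RNA was also present in cells that no comparison used. The 258 cells without a clear hashtag gave 199 UMIs of Cd274, which is 215 CPM (187 to 247), and 31 UMIs of Pdcd1lg2, which is 33.6 CPM (22.8 to 47.6), where a count of 0 would allow 3.25 CPM. Their Malat1 level was 8549 CPM. The 2971 cells of the 9 populations that passed no gate gave 2595 UMIs of Cd274, which is 234 CPM (225 to 243), and 276 UMIs of Pdcd1lg2, which is 24.8 CPM (22 to 27.9), where a count of 0 would allow 0.270 CPM. These cells were shallow, with a median of 2265 UMIs, and held C1qb at 2260 CPM, Cd79a at 258 CPM and Cd3e at 240 CPM. The part of mixed or damaged cells in these levels was not tested.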

How the results depend on the processing

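No paired analysis was possible because the hashtag populations are tied to no mouse or site. Removing Scrublet doublets, a hashtag ratio of 10 and no filter on cells left all levels, shares and counts that lead the text within their counting error or within 1.5 times. With doubled marker minimums Cd274 in macrophages was 268 CPM in place of 276. In cells with at least 5000 UMIs, a choice added after seeing the data, Cd274 was 79.5 CPM in activated CD8 T cells and 102 in B cells, Pdcd1lg2 was 28.9 CPM in B cells, and the Cd274 ratio of Treg to naive CD4 T cells in population 8 was 0.955, below 1. On log1p values 20 genes were called higher with Pdcd1lg2 in macrophages (32 in the text) and 10 with Cd274 in T cells (39). With Malat1 and ribosomal share regressed out, also added later, the counts were 161 for Cd274 in macrophages and 24 for Cd274 and 5 for Pdcd1lg2 in T cells. Within activated CD8 T cells 283 genes were called with Cd274 and 38 with Pdcd1lg2, and within naive T cells 10 and 56. Within Treg cells, with a limit of 20 cells per population, 73 were called with Pdcd1lg2. Fewer populations enter these counts. Gpm6b turned to -0.0123 with Pdcd1lg2 within activated CD8 T cells and Bcl2a1b to -0.00778 within naive T cells. Thinned to 1000 UMIs, the ratio of observed to expected double-positive B cells was 0.981.

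Leaving out 1 population at a time moved Cd274 to between 458 and 615 CPM in migratory dendritic cells, 310 and 541 in monocytes, 225 and 375 in macrophages, and 75.4 and 88.1 in activated CD8 T cells. It moved Pdcd1lg2 to between 80.5 and 146 CPM in migratory dendritic cells, 6.99 and 19.9 in macrophages, 64.1 and 89.2 in NK cells, and 51.1 and 58.5 in activated CD8 T cells. Its share ran from 3.02% to 5.03% in macrophages and from 40.2% to 50.6% in NK cells. Counts of genes called ran from 40 to 59 for Pdcd1lg2 in macrophages, 0 to 1 for Cd274 in B cells, 10 to 30 for Pdcd1lg2 in T cells, 645 to 1558 for Cd274 in NK cells and 893 to 996 for Pdcd1lg2 in NK cells. In NK cells 1 population is then left, so the condition of equal sign is met by every gene. Counts in macrophages and T cells for Cd274 stayed between 449 and 793 and between 30 and 53. For type 1 dendritic cells, plasma cells and neutrophils this step was added after seeing the data. The cause of these shifts was not tested.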
